A study of Mus musculus with 12 samples.

Results

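Ribosome biogenesis and nucleolar genes were followed in C2C12 cells, an established mouse myoblast line that differentiates toward muscle when serum is withdrawn. A total of 36 genes were listed by symbol: Myc, subunits of RNA polymerase I, proteins of the small nucleolar ribonucleoproteins (snoRNPs), assembly factors of both ribosomal subunits, and abundant nucleolar proteins. A gene was measured where a probe of that symbol had a detection p under 0.05 on at least 2 of the 12 arrays. Of the 36 genes 31 had a named probe and 29 passed, out of 10346 genes that passed in all. Nolc1 was detected on 1 array and Nop16 on 0, so neither was measured, and Fbl, Dkc1, Utp20, Bysl and Wdr12 were not analysed here. Of the 29 genes 24 were detected on all 12 arrays. The exceptions were Myc, detected on 3 arrays (GM replicates 1 and 2, siBRG1 replicate 2), Gnl3 on 5, Rrs1 on 6, and Polr1b and Tsr1 on 11 each.

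The arrays were Illumina BeadChips of total RNA, 2 per group. In the siBRG1, siBAF60b and siBAF60c groups the cells carried siRNA pools against BRG1, the ATPase encoded by Smarca4 that drives SWI/SNF chromatin remodelling, or against its accessory subunits BAF60b (Smarcd2) and BAF60c (Smarcd3). The siScramble group received a scrambled pool. Transfection was done in growth medium with 15% serum. The change to ITS differentiation medium followed after 36 h, and RNA was taken 18 h after the change. DM cells were wild-type cells after 18 h in differentiation medium and GM cells wild-type cells in growth medium. Both carry the transfection entry "control", and whether they met a transfection reagent is unstated. By replicate, siScramble, siBAF60b and siBAF60c lay on BeadChips 1 and 2, siBRG1 on 1 and 3, and DM and GM on 2 and 3. The labels do not say that the 2 replicates of a group were separate cultures, so a p-value here reflects only how far these arrays varied, which may be technical.

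A ribosome begins in the nucleolus, where RNA polymerase I transcribes the long precursor of the ribosomal RNAs. Box C/D snoRNPs add methyl groups to that precursor and box H/ACA snoRNPs convert uridines to pseudouridine, while the small subunit processome and the large subunit factors cut, fold and pack it with ribosomal proteins. Myc, a transcription factor that binds DNA with Max, is known to raise transcription of many of these genes in growing cells, and myoblasts that leave the cell cycle to form muscle make fewer new ribosomes.

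Myc and Max bind the E-box CACGTG, which reads the same on both strands. The promoters below, each 250 bases before and 50 after the start of the gene, are shown because these genes carried large decreases in the transfected control and because the first 3 hold the E-box (in capitals) and the last does not. The genes were picked after their values were seen. The sequences are RefSeq's on build GRCm38.p6, all from the + strand: chr11:3963725-3964024 for Pes1, chr6:125131633-125131932 for Nop2, chr11:74897830-74898129 for Tsr1 and chr2:130274162-130274461 for Nop56.
Pes1: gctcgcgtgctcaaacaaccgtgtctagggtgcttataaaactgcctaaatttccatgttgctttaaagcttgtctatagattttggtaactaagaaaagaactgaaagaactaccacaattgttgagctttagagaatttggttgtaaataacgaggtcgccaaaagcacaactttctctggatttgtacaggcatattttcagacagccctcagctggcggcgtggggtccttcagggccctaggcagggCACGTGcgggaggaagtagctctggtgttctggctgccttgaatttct
Nop2: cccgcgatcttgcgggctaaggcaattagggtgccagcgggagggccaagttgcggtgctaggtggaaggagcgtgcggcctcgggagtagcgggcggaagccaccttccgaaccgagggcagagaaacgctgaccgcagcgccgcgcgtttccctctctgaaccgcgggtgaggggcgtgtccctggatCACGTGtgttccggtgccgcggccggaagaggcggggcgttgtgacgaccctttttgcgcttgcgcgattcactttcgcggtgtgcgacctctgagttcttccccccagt
Tsr1: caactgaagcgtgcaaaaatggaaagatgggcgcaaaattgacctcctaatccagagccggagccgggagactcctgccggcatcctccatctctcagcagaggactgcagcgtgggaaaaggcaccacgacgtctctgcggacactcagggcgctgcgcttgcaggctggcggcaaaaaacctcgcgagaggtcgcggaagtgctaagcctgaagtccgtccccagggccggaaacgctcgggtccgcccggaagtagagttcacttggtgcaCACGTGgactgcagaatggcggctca
Nop56: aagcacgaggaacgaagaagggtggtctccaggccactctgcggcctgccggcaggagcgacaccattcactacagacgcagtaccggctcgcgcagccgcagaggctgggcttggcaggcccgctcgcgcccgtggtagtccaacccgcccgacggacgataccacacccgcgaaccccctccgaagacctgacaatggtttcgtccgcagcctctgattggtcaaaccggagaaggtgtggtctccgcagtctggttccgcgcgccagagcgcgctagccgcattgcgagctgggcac
The E-box begins at base 253 of the Pes1 window, 191 of the Nop2 window and 275 of the Tsr1 window. Of the listed genes, measured or not, 29 had a promoter in the RefSeq table, and for 7 it held CACGTG (24.1%). These were Imp4, Mybbp1a, Nop2, Pes1, Tsr1, Utp20 and Wdr43. Of the 23 listed genes that were measured and had a promoter 6 held it (26.1%). Over the 8397 measured genes with a promoter the share was 11.4%, and over all 27025 genes with a RefSeq window it was 8.09%. A match is a description of letters and not a binding site.

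The median signal of an array lay between 119 and 149, and 12724 to 15414 of 45281 probes were detected. Before normalization the mean signal was 839 on GM replicate 1, which also had the most detected probes, and 335 to 536 on the other arrays. In DM 17.7% of all genes lay more than 1 log2 unit apart on the 2 arrays, against 1.04 to 4.47% in the other groups. Each siRNA target was lower in its own knockdown than in siScramble, with separate arrays. Smarca4 was 6.77 and 6.38 in siBRG1 cells, against 7.77 and 7.20 in siScramble cells, or 52.95% of siScramble. Smarcd2 was at 34.1% in siBAF60b cells and Smarcd3 at 52.3% in siBAF60c cells, and no target passed the test over all genes. Of 7 myoblast markers with a probe 5 were detected on all 12 arrays, among them Myod1 and Des, and of 21 markers of other cell types 3 were (Sox9, Cd14 and Stmn2). Some of these markers moved with the groups. The adipocyte gene Lpl rose by 1.64 and the neuronal gene Map2 by 2.72 in siScramble against GM (adjusted p = 0.00213 and 3.42e-05 in limma), while Pparg fell in siScramble (-1.24) and in DM (-2.36) and Stmn2 fell in DM (-0.94). In siScramble against DM Lpl, Map2 and Stmn2 rose. Median scaling kept none of these 3 calls, nor that of Lpl against GM. Without Sox9 the summed linear intensity of the 12 other measured markers was 903 to 979 in siBRG1, 1517 to 1704 in siBAF60b, 1592 to 1933 in siBAF60c, 1487 to 1556 in siScramble, 723 to 770 in DM and 1144 to 1297 in GM. The part of other cell types in the results below was not tested.

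All levels below are log2 intensities after background correction and quantile normalization, and a difference is the group named first minus the one named after "against", with its standard error (SE) from limma over all 12 arrays. A gene is said to have risen or fallen where its Benjamini-Hochberg adjusted p over all 10346 genes was under 0.05. Each probe has its own brightness, so levels are compared between arrays and never between genes. RNA was taken from whole cultures, in which fewer cells expressing a gene and less RNA per cell cannot be told apart.

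The 29 genes had their highest group mean in GM in 22 cases, in DM in 7 (Polr1a, Polr1e, Rrp9, Bop1, Nop2, Ppan and Ddx21), and in no transfected group. Among these 7, second probes detected on all 12 arrays differed in DM against GM by 0.21 for Polr1a, 0.25 for Nop2 and -1.23 for Ddx21. That Ddx21 probe read 6.56 in DM and 7.79 in GM, so the place of Ddx21 among the 7 rests on its brightest probe. GM was the lowest group for 0 of the 29. The lowest mean lay in siBAF60b for 11 genes, in siScramble for 8, in DM for 5, in siBAF60c for 4 and in siBRG1 for 1. Relative to the GM mean, the median of the 29 genes on single arrays was -0.74 and -0.65 for siBRG1. It was -0.98 and -1.07 for siBAF60b, -0.90 and -0.75 for siBAF60c, -0.94 and -0.95 for siScramble, and -0.50 and -0.31 for DM. The same median over all measured genes lay between -0.04 and 0.11 on these arrays. In the map of the 29 genes by array, most genes are low on the 8 transfected arrays, whereas DM replicate 2 mixes the deepest decreases of the map with genes at or above their GM level.

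**Figure D1:**
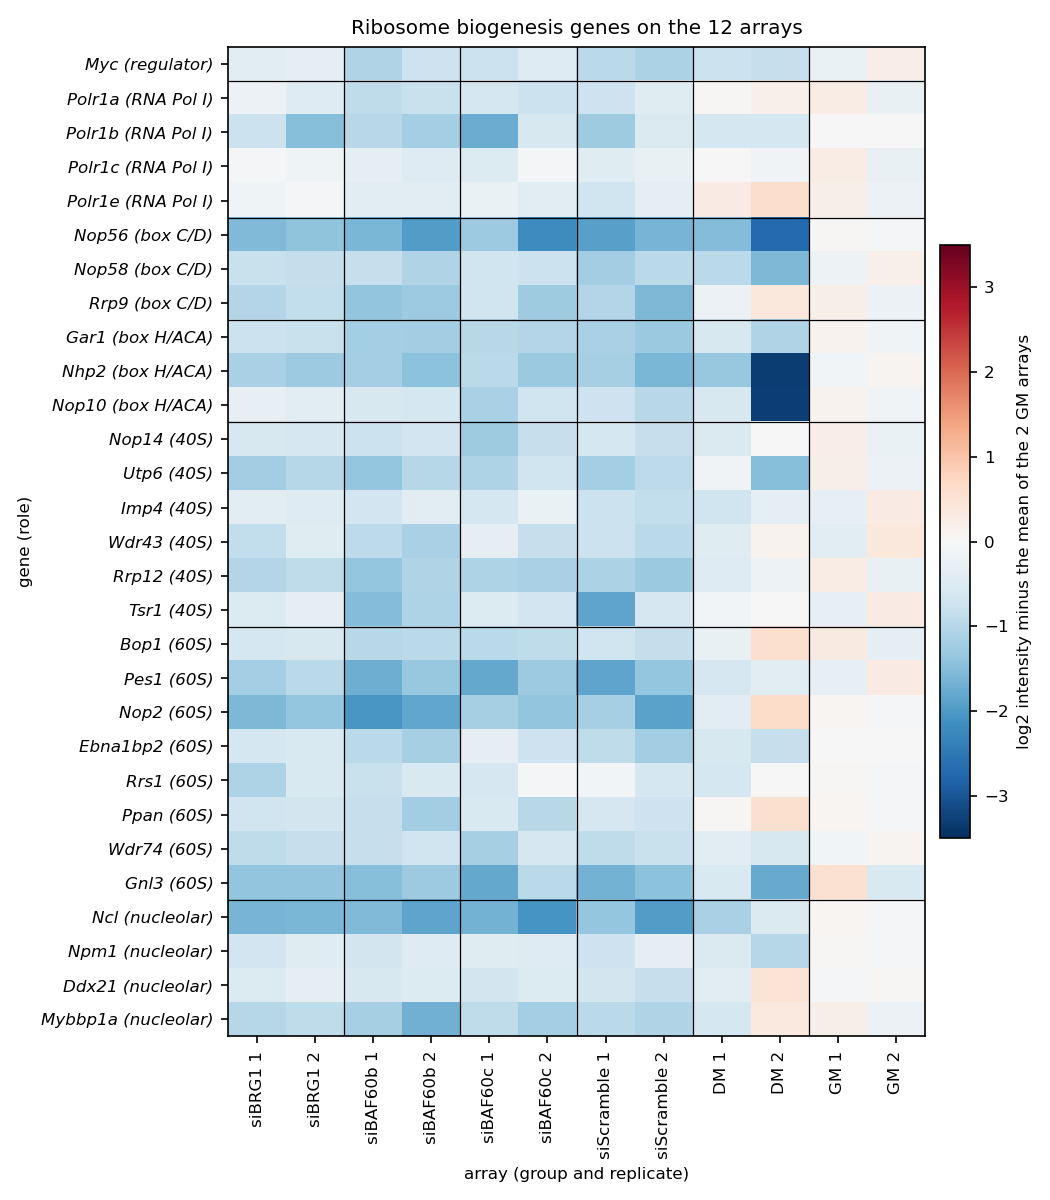
Log2 intensity of 29 ribosome biogenesis genes (rows, with role) on the 12 arrays (columns) minus the mean of the 2 GM arrays, with blue below and red above GM. Most genes are low on the transfected arrays, and DM replicate 2 is the most uneven, with Nhp2 and Nop10 lowest of all.

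In the transfected control, siScramble against GM, ribosome biogenesis genes were lower as a body. All 29 measured genes lay below GM, and in all 29 both siScramble arrays read below both GM arrays, which was so for 28.3% of all genes. The median difference was -0.99, against 0.01 over all genes. A total of 12 genes fell and 0 rose, where 5.95% of all genes fell and 6.3% rose. Of all called genes 48.6% fell, and with median scaling 85.2%. With median scaling 19 of the 29 genes fell and 0 rose, where 897 of all 10346 genes fell and 156 rose. Of the 24 genes detected on every array, which did not pass the filter through GM alone, 24 of 24 had separate arrays, 9 fell and the median was -0.92. Unadjusted, 24 of the 29 had a p under 0.05 on the lower side, against 12.7% of all genes.

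Myc, the regulator of the list, read 4.79 and 4.63 in siScramble cells, where it was not detected, against 5.51 and 5.96 in GM cells. It fell by 1.02 (SE 0.27, adjusted p = 0.0208). Myc passed the detection filter through the 2 GM arrays and 1 siBRG1 array, so it was measured because it is high in GM, and its count among the 12 is a description. Because the siScramble signal was not above background, the decrease is also given as a bound, in which the GM mean is set against the higher of the dim probe's own value and the lowest signal of any detected probe on each siScramble array: Myc was at least 1.27-fold lower. None of the 4 RNA polymerase I subunits passed. The largest subunit, Polr1a, was 10.43 and 10.74 in siScramble, against 11.42 and 10.91 in GM (difference -0.58, SE 0.27, adjusted p = 0.197). The second largest, Polr1b, was 5.86 and 6.60 in siScramble, against 7.13 and 7.08 in GM (-0.88, SE 0.38, adjusted p = 0.165). Polr1c and Polr1e differed by -0.34 and -0.50.

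Each of the 3 measured box C/D proteins fell. Nop56, a core scaffold of the box C/D particle, was 7.56 and 7.82 in siScramble, against 9.50 and 9.41 in GM. The arrays were far apart, and the gene fell by 1.76 (SE 0.38, adjusted p = 0.00699), to 29.5% of its GM level. Rrp9, a protein of the U3 particle that guides the first cuts of the precursor, was 8.37 and 7.82 in siScramble, against 9.59 and 9.21 in GM, and fell by 1.31 (SE 0.31, adjusted p = 0.0119). Nop58, the partner of Nop56, fell by 1.08 (SE 0.28, adjusted p = 0.0203). Of the box H/ACA proteins 1 of 3 passed. Gar1 was 11.89 and 11.74 in siScramble, against 13.16 and 12.92 in GM, and fell by 1.23 (SE 0.26, adjusted p = 0.00595). A second Gar1 probe differed by -1.0. Nhp2 differed by -1.38 (adjusted p = 0.0673) and Nop10 by -0.84 (adjusted p = 0.412).

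Among 60S assembly factors 4 of 8 fell. Pes1, a subunit of the complex that processes the large subunit precursor, was 7.98 and 8.48 in siScramble, against 9.54 and 10.12 in GM, and fell by 1.60 (SE 0.31, adjusted p = 0.0031), to 33.0% of GM. Nop2, a methyltransferase of the large subunit RNA, was 7.62 and 6.90 in siScramble, against 8.82 and 8.71 in GM, and fell by 1.51 (SE 0.34, adjusted p = 0.00876). A second Nop2 probe detected on all 12 arrays differed by -0.95 and another, dim one by -0.29. Gnl3, the GTP-binding protein nucleostemin, was 4.98 and 5.21 in siScramble, not detected, against 7.17 and 6.10 in GM. It fell by 1.54 (SE 0.42, adjusted p = 0.0268) and was at least 2.38-fold lower. Ebna1bp2 fell by 1.05 (SE 0.26, adjusted p = 0.0167), whereas Bop1, a partner of Pes1 in its complex, differed by -0.76 (adjusted p = 0.136).

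Of 6 small subunit factors 2 fell. Rrp12 fell by 1.20 (SE 0.27, adjusted p = 0.00889). Tsr1, which acts late in 40S maturation, was 5.11 and 6.38 in siScramble, against 6.67 and 7.27 in GM, and fell by 1.22 (SE 0.37, adjusted p = 0.0428). The Tsr1 call rested on 1 probe: a second one, detected on 10 arrays, differed by 0.96 in the opposite direction. Utp6, Wdr43, Imp4 and Nop14 differed by -1.05, -0.85, -0.81 and -0.71 without passing.

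Of the 4 nucleolar proteins only nucleolin passed. Ncl, which binds the precursor RNA and is among the most abundant proteins of the nucleolus, was 10.13 and 9.52 in siScramble, against 11.55 and 11.41 in GM. It fell by 1.65 (SE 0.30, adjusted p = 0.00232), and a second probe differed by -1.45. Npm1, nucleophosmin, was 13.79 and 14.15 in siScramble, against 14.56 and 14.46 in GM (-0.54, SE 0.27, adjusted p = 0.237). Mybbp1a and the RNA helicase Ddx21 differed by -0.99 and -0.73. A second Ddx21 probe differed by -1.30, and the further Mybbp1a probes by -0.84 and -0.65.

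The number of calls depended on every array of the 4. Without GM replicate 1 it was 3 (Myc, Pes1 and Ncl), and without GM replicate 2 it was 5 (Rrp9, Gar1, Rrp12, Gnl3 and Ncl). Without siScramble replicate 1 it was 6 (Rrp9, Gar1, Rrp12, Nop2, Ebna1bp2 and Ncl), and without siScramble replicate 2 also 6 (Nop56, Nop58, Gar1, Tsr1, Pes1 and Ncl). The median difference stayed between -0.95 and -0.93 in these 4 fits. Of the 12 calls Ncl alone held under all 16 alternatives run for it. The 1 BeadChip that carried both groups held siScramble replicate 2 and GM replicate 1, the array with the highest mean signal. There the median was -1.04 and 29 of 29 genes were lower in siScramble. Against both GM arrays, siScramble replicate 2 was lower for all 29, where 37.8% of all genes were. The other knockdowns shared the low level: both arrays lay below both GM arrays for 26 genes in siBRG1 (27.1% of all genes), 29 in siBAF60b (28.2%) and 26 in siBAF60c (28%).

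**Figure D2:**
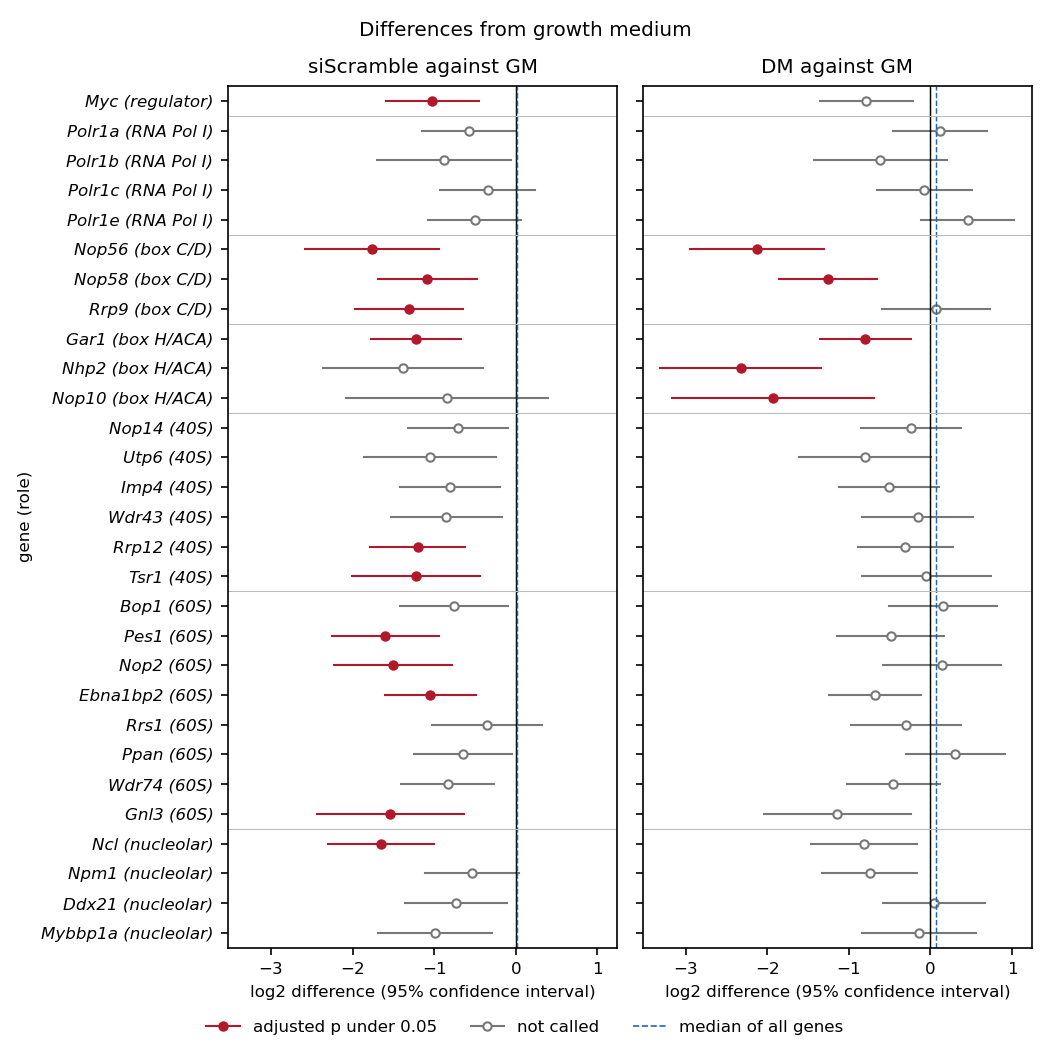
Log2 differences of the 29 genes (rows, by role) in siScramble against GM (left) and DM against GM (right), with 95% confidence intervals. Filled red points have an adjusted p under 0.05, and the dashed line is the median of all genes. In siScramble 12 genes fell, of every role except RNA polymerase I, and in DM 5, all snoRNP proteins.

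In untransfected cells, DM against GM, the genes that passed were snoRNP proteins. A total of 5 of the 29 genes fell and 0 rose, where 8.93% of all genes fell and 10.5% rose, and the 5 are 17.2% of the list. Unadjusted, 10 of the 29 had a p under 0.05 on the lower side (15.1% of all genes). Of all called genes 46.0% fell, and with median scaling 85.6%. With median scaling 9 of the 29 genes fell and 0 rose, where 1304 of all 10346 genes fell and 220 rose. The 4 further genes with median scaling were Ebna1bp2, Gnl3, Ncl and Npm1, none of them a snoRNP protein. The count was also 9 with the BeadChip as a fixed or as a random block, where the 4 further genes were Myc, Gnl3, Ncl and Npm1. All 5 are proteins of the 2 kinds of snoRNP, and all 3 measured box H/ACA proteins were among them. The median difference of the 29 genes was -0.46, against 0.07 over all genes. Both DM arrays lay below both GM arrays for 13 genes (24.1% of all genes) and above them for 1, Polr1e (28.9%).

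Nhp2, which binds the box H/ACA guide RNA with its partner proteins, was 11.50 and 9.51 in DM cells, against 12.73 and 12.93 in GM cells. It fell by 2.33 (SE 0.46, adjusted p = 0.00288). Nop10, the smallest protein of that particle, was 11.04 and 8.29 in DM, against 11.71 and 11.48 in GM, and fell by 1.93 (SE 0.58, adjusted p = 0.0315). Both genes were low on either DM array and much lower on the second. The standard deviation of the 2 DM arrays was 1.41 for Nhp2 and 1.95 for Nop10. The SE rests on 1 estimate of the spread shared by the 6 groups. For genes as uneven in DM as these, the SE and adjusted p of a comparison with DM may therefore be too small. Dimmer probes of Nhp2 and Nop10 differed by -1.49 and -0.89. Gar1 was 12.49 and 12 in DM, against 13.16 and 12.92 in GM, and fell by 0.80 (SE 0.26, adjusted p = 0.0441). Nop56 was 7.94 and 6.72 in DM, against 9.50 and 9.41 in GM, and fell by 2.12 (SE 0.38, adjusted p = 0.00156). Nop58 was 9.92 and 9.29 in DM, against 10.69 and 11.04 in GM, and fell by 1.26 (SE 0.28, adjusted p = 0.00629). Rrp9, also a box C/D protein, was 9.18 and 9.77 in DM, against 9.59 and 9.21 in GM, so its arrays overlapped (0.07, SE 0.31, adjusted p = 0.903).

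Outside the snoRNPs no gene passed with the settings used throughout. Other settings that also quantile normalize all 12 arrays added such genes. An offset of 50 or no background correction added Ebna1bp2, Ncl and Npm1, and the mean of all probes added Myc, Imp4 and Ebna1bp2. Myc was 4.99 and 4.92 in DM, not detected, against 5.51 and 5.96 in GM (-0.78, SE 0.27, adjusted p = 0.053), a decrease of at least 1.18-fold. Ncl was 10.35 and 10.98 in DM, against 11.55 and 11.41 in GM (-0.81, SE 0.30, adjusted p = 0.0772). Npm1 was 14.01 and 13.51 in DM, against 14.56 and 14.46 in GM (-0.75, SE 0.27, adjusted p = 0.0672). These 3 genes had separate arrays and just missed the threshold. Polr1a was 11.21 and 11.34 in DM, against 11.42 and 10.91 in GM (0.11, SE 0.27, adjusted p = 0.819). Polr1b was 6.50 on both DM arrays, against 7.13 and 7.08 in GM (-0.61, SE 0.38, adjusted p = 0.292). Polr1e differed by 0.46 (adjusted p = 0.258). On the brightest probe of each gene the small subunit factors lay between -0.80 (Utp6) and -0.05 (Tsr1), and the 60S factors between -1.14 (Gnl3) and 0.31 (Ppan). Some second probes lay outside these ranges, at -1.76 for Imp4, 0.50 for Tsr1 and -1.20 for Ebna1bp2. In DM against GM 12 of the 16 further probes of the 29 genes had the sign of the brightest probe.

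The DM arrays disagreed more than any other pair. They differed by more than 1 in 5 of the 29 genes, against 0 or 1 in every other group, and the 17.2% is near the 17.7% over all genes. Nhp2, Nop10, Nop56, Utp6 and Gnl3 were lower on DM replicate 2, while Nop2, Mybbp1a, Ddx21 and Bop1 were higher on it. The count of 5 was 10 without DM replicate 1, which added Myc, Utp6, Ebna1bp2, Gnl3 and Npm1. It was 4 without DM replicate 2 (Nop56, Nop58, Nhp2 and Ncl), 3 without GM replicate 1 (Nop56, Nop58 and Nhp2) and 3 without GM replicate 2 (Nop56, Nhp2 and Gnl3). Nop56 and Nhp2 fell under all 16 alternatives run, whereas Gar1 and Nop10 were lost without GM replicate 1, GM replicate 2 or DM replicate 2, and Nop58 without GM replicate 2. On the BeadChip with replicate 1 of both groups 27 of 29 genes were lower in DM (median -0.55), and on the BeadChip with replicate 2 it was 17 (median -0.43). Against both GM arrays, DM replicate 1 was lower for 21 genes (39.4% of all genes) and DM replicate 2 for 15 (36.9%).

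**Figure D3:**
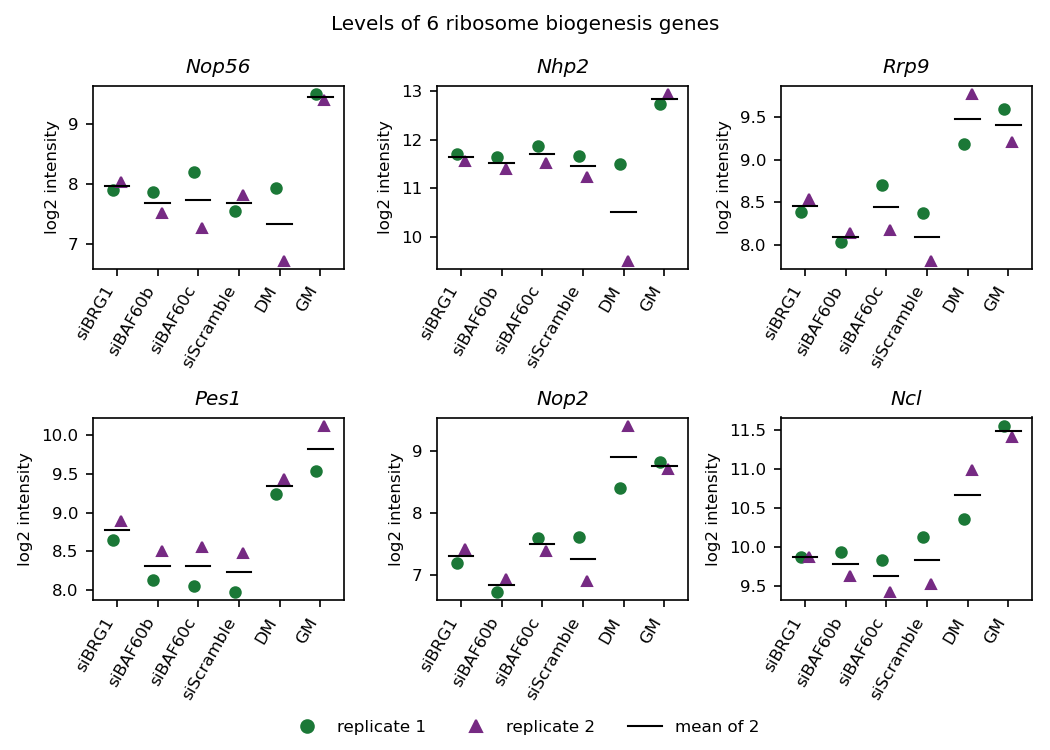
Log2 intensity of 6 genes on each array (circles replicate 1, triangles replicate 2, line the mean of 2) in the 6 groups. Nop56 and Nhp2 are low in DM and in the transfected groups, Rrp9 and Nop2 are low in the transfected groups and near GM in DM, and Pes1 and Ncl lie in between in DM.

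The changes in the transfected control and in untransfected cells share their GM arrays, so the difference between them was taken directly, as siScramble against DM. A total of 2 of the 29 genes fell, Nop2 and Rrp9, and 0 rose, where 1.74% of all genes fell and 1.66% rose. Unadjusted, 13 of the 29 had a p under 0.05 on the lower side (10.6% of all genes). Of all called genes 51.1% fell, and with median scaling 28.1%. With median scaling 0 of the 29 passed, where 9 of all 10346 genes fell and 23 rose. Nop2 was 7.62 and 6.90 in siScramble, against 8.41 and 9.41 in DM, and fell by 1.65 (SE 0.34, adjusted p = 0.0155). Rrp9 was 8.37 and 7.82 in siScramble, against 9.18 and 9.77 in DM, and fell by 1.38 (SE 0.31, adjusted p = 0.0259). A second Nop2 probe differed by -1.20 and the dim one by 0.16. Both siScramble arrays lay below both DM arrays for 20 genes (23.1% of all genes) and above them for 0 (16.5%), and the median was -0.43, against -0.06 over all genes.

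Of the 6 measured snoRNP proteins Rrp9 fell, Gar1 differed by -0.43, and some others lay above 0 without passing. Nhp2 differed by 0.94 (adjusted p = 0.291), Nop10 by 1.08 (adjusted p = 0.332) and Nop56 by 0.36 (adjusted p = 0.659), each with overlapping arrays, as DM replicate 2 lay below both siScramble arrays and DM replicate 1 did not. Near the threshold on the other side stood Pes1 (-1.11, adjusted p = 0.0644), Polr1e (-0.96, adjusted p = 0.0657), Ppan (-0.95, adjusted p = 0.084) and Rrp12 (-0.89, adjusted p = 0.0899). Myc was detected in neither group. Polr1a differed by -0.69, Polr1b by -0.27, Ncl by -0.84 and Npm1 by 0.21. The count depended on single arrays. Without DM replicate 1 it was 12 genes, of which 10 fell and 2 rose (Nhp2 and Nop10), and without DM replicate 2 it was 0. Without siScramble replicate 1 it was 1 (Nop2), and without siScramble replicate 2 it was 1 (Tsr1). The siScramble and DM groups shared 1 BeadChip, on which 27 of 29 genes were lower in siScramble (median -0.46). That pair was siScramble replicate 2 and DM replicate 1, and no share over all genes is given beside this count.

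In BRG1-depleted cells, siBRG1 against siScramble, no ribosome biogenesis gene passed the test of limma, where 0.28% of all genes did. Unadjusted, 2 genes (Myc and Tsr1) had a p under 0.05 on the higher side (4.04% of all genes) and 0 on the lower (4.03%). The differences were small and mostly above 0. Both siBRG1 arrays lay above both siScramble arrays for 17 of the 29 genes (22.3% of all genes) and below them for 0 (20.1%), and 23 genes had a difference above 0. The median was 0.24, against 0.01 over all genes. With the 24 genes detected on all arrays it was 14 and 0, with the same median of 0.24.

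The largest difference was that of Tsr1, at 6.50 and 6.63 in siBRG1 cells, against 5.11 and 6.38 in siScramble cells (0.82, SE 0.37, adjusted p = 0.585). The second Tsr1 probe differed by -0.42, in the opposite direction. Myc was 5.34 and 5.39 in siBRG1, detected on the second array, against 4.79 and 4.63 in siScramble, where it was not detected (0.66, SE 0.27, adjusted p = 0.518). Pes1 was 8.65 and 8.89 in siBRG1, against 7.98 and 8.48 in siScramble (0.54, SE 0.31, adjusted p = 0.735). On its brightest probe each of these 3 read higher on both siBRG1 arrays and stayed below its GM level. The second Tsr1 probe read 6.07 in siBRG1, 6.50 in siScramble and 5.54 in GM, so it lay above GM. At the other end Rrs1, a 60S factor near background, was 4.71 and 5.24 in siBRG1, against 5.70 and 5.17 in siScramble (-0.46, SE 0.32). Polr1b was 6.37 and 5.63 in siBRG1, against 5.86 and 6.60 in siScramble (-0.23, SE 0.38), and Utp6 was 8.46 and 8.68 in siBRG1, against 8.51 and 8.77 in siScramble (-0.07, SE 0.38). The arrays of these 3 overlapped.

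Nop56 was 7.90 and 8.03 in siBRG1, against 7.56 and 7.82 in siScramble (0.27), and Gar1 12.30 and 12.27 in siBRG1, against 11.89 and 11.74 in siScramble (0.47). Polr1a was 10.95 and 10.71 in siBRG1, against 10.43 and 10.74 in siScramble (0.25). Of the nucleolar proteins, Ncl was 9.87 on both siBRG1 arrays, against 10.13 and 9.52 in siScramble (0.04, 95% confidence interval -0.61 to 0.69), and Npm1 was 13.85 and 14.09 in siBRG1, against 13.79 and 14.15 in siScramble (-0.00, interval -0.58 to 0.58). Intervals of this width do not show that the levels were alike. The second Ncl probe differed by -0.29 and the second Ddx21 probe by 0.67, against 0.32 on its main probe. Of the 16 further probes of the 29 genes 8 had the sign of the main probe in siBRG1 against siScramble. On the only BeadChip with both groups the median was 0.18 and 22 of 29 genes were higher in siBRG1. That pair was replicate 1 of each group, and no share over all genes is given beside this count. In the same comparison all 15 measured proliferation markers lay above siScramble (median 0.41) and all 9 muscle differentiation markers below it (median -1.12), and the part of either in the differences of the ribosome biogenesis genes was not tested.

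**Figure D4:**
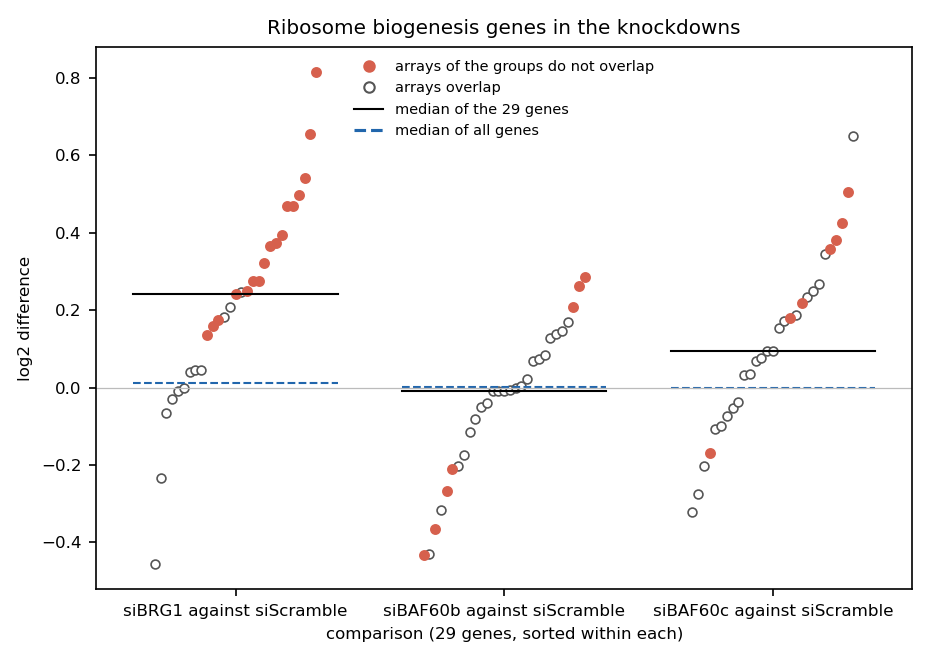
Log2 differences of the 29 genes in each knockdown against siScramble, sorted within each comparison (vertical axis). Filled points are genes whose arrays do not overlap between the groups, solid lines the median of the 29 and dashed lines that of all genes. The siBRG1 median is 0.24, those of siBAF60b and siBAF60c -0.01 and 0.09.

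In siBAF60b against siScramble no gene passed in limma either (0.00967% of all genes), 0 had an unadjusted p under 0.05 (3.53% of all genes), and the median was -0.01. Arrays were separate for 4 genes on the lower side (16.5% of all genes), Polr1a, Bop1, Ppan and Mybbp1a, and for 3 on the higher (16.1%), Nop10, Imp4 and Ddx21. The lowest differences were those of Mybbp1a, at 9.57 and 9.06 in siBAF60b, against 9.80 and 9.69 in siScramble (-0.43, SE 0.33), of Nop2, at 6.72 and 6.94 in siBAF60b, against 7.62 and 6.90 in siScramble (-0.43, SE 0.34), and of Ppan, at 10.21 and 9.81 in siBAF60b, against 10.45 and 10.31 in siScramble (-0.37, SE 0.28). The highest were Imp4, at 9.56 and 9.84 in siBAF60b, against 9.47 and 9.36 in siScramble (0.29), Nop10, at 11.05 and 10.98 in siBAF60b, against 10.88 and 10.62 in siScramble (0.26), and Ddx21 (0.21). Nop56 differed by -0.00 (interval -0.82 to 0.82), Ncl by -0.05, Npm1 by -0.01, Polr1a by -0.27 and Polr1b by -0.20.

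In siBAF60c against siScramble no gene passed in limma (0.00967% of all genes), 0 had an unadjusted p under 0.05 (4.61% of all genes), and the median was 0.09. Arrays were separate for 6 genes on the higher side (16.3% of all genes), Myc, Nop58, Gar1, Imp4, Ebna1bp2 and Ddx21, and for 1 on the lower (16.3%), Bop1. The highest differences were those of Tsr1, at 6.50 and 6.30 in siBAF60c, against 5.11 and 6.38 in siScramble (0.65, SE 0.37, and -0.84 on its second probe), of Ebna1bp2, at 10.20 and 9.82 in siBAF60c, against 9.67 and 9.34 in siScramble (0.50, SE 0.26), and of Imp4, at 9.59 and 10.00 in siBAF60c, against 9.47 and 9.36 in siScramble (0.38). Myc read 4.99 and 5.29 in siBAF60c, against 4.79 and 4.63 in siScramble, and was detected in neither group, so its separation and its place in an order carry no weight. The lowest were Nop14, at 8.43 and 8.88 in siBAF60c, against 9.08 and 8.87 in siScramble (-0.32, SE 0.29), Polr1b, at 5.36 and 6.55 in siBAF60c, against 5.86 and 6.60 in siScramble (-0.27), and Ncl, at 9.83 and 9.42 in siBAF60c, against 10.13 and 9.52 in siScramble (-0.20). Nop56 differed by 0.04, Npm1 by 0.09 and Polr1a by -0.11.

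Set against each other, the knockdowns gave no call among the 29 genes in limma. Of all genes 0.087% passed in siBRG1 against siBAF60b, 0.116% in siBRG1 against siBAF60c and 0% in siBAF60c against siBAF60b. In siBRG1 against siBAF60b both arrays were higher for 19 genes (21.7% of all genes) and lower for 0 (19.2%), with a median of 0.27, and 25 of 29 differences were above 0. The unadjusted p was under 0.05 for 1 gene (6.05% of all genes), Tsr1, which was 6.50 and 6.63 in siBRG1, against 5.45 and 5.88 in siBAF60b (0.90). In siBRG1 against siBAF60c it was 12 genes higher (22.4%) and 1 lower (19.4%), with a median of 0.10, and 0 had an unadjusted p under 0.05 (7.08%). In siBAF60c against siBAF60b it was 9 higher (17.7%) and 2 lower (18%), with 0 unadjusted (4.97%), and the median was 0.11 with quantile normalization and -0.10 with median scaling, where the median of all genes was -0.17. These comparisons share arrays with one another.

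The rest of the pathway was described from lists by role. Of 102 other measured ribosome biogenesis factors 21 (20.6%) fell and 0 rose in siScramble against GM, where 5.95% of all genes fell. The median was -0.58, and 71 (69.6%) had both arrays below GM, against 28.3% of all genes. In DM against GM 15 of the 102 (14.7%) fell and 0 rose, where 8.93% of all genes fell, with a median of -0.28. With median scaling 32 fell in siScramble and 23 in DM, where 897 and 1304 of all 10346 genes fell. Lyar, a nucleolar protein of growing cells, fell by 2.64 in siScramble (SE 0.27, adjusted p = 1.6e-05) and fell by 2.13 in DM (adjusted p = 8.55e-05). Exosc6 and Exosc1 are subunits of the exosome, the nuclease that trims the 3′ ends of ribosomal RNA precursors. Exosc6 fell in both comparisons, with a difference of -1.72 in siScramble and -1.35 in DM. Exosc1 did too, with -1.38 in siScramble and -1.41 in DM. Rpp30, of the RNase P and MRP particles, fell by 1.85 in DM and differed by -1.13 in siScramble (adjusted p = 0.0593). In siBRG1 against siScramble 75 of the 102 lay above 0 and 0 passed, with a median of 0.15.

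For the counts that follow, 1268 of all 10346 genes passed in siScramble against GM and 2010 in DM against GM. Unadjusted, 2615 and 3353 had a p under 0.05. With median scaling 897 of all genes fell in siScramble and 1304 in DM. The other polymerase I proteins gave 0 calls of 6 in either comparison with GM in limma, where unadjusted 0 had a p under 0.05 in siScramble and 1 in DM. Of 9 genes of RNA polymerase III and its factors 1 fell in siScramble, Polr3g (by 1.00, adjusted p = 0.0471), named after its value was seen. In DM 1 rose, the polymerase III repressor Maf1 (by 0.87, SE 0.27, adjusted p = 0.0368), a call lost with median scaling (difference 0.18), under which 0 rose and 1 fell. For the ribosome's own proteins the counts depended on the scaling. Of 52 cytosolic ribosomal protein genes 0 passed in siScramble against GM (2 unadjusted), with a median of -0.07. In DM 1 fell, Rpl7a, with a difference of -1.53, and 1 rose, Rpl22, with 1.15. With median scaling 10 of the 52 fell and 0 rose in DM, and 1 fell in siScramble. Many of these genes have near-identical pseudogene copies in the mouse, and whether their probes also read those was not examined. Of 72 mitochondrial ribosomal protein genes 0 passed in siScramble (6 unadjusted, median -0.16), and 4 fell and 2 rose in DM. Each of these counts was a smaller share than over all genes. With median scaling 7 of these fell in siScramble, and 13 fell and 0 rose in DM. Among 35 translation factors 0 passed in siScramble (2 unadjusted) and 1 fell in DM, Eif3b (difference -1.01). With median scaling 4 fell in siScramble and 3 in DM. With median scaling, under which the median of all genes was -0.56 in siScramble against GM, the 29 genes stood at -1.09 relative to that median, the other biogenesis factors at -0.80 and the cytosolic ribosomal proteins at -0.07.

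Of 6 measured genes of the Myc network 4 passed in DM against GM and 2 in siScramble against GM, and all of these rose. Over all genes 10.5% rose in DM and 6.3% in siScramble. Mycl, a paralog of Myc, rose by 2.87 in siScramble against GM and by 3.44 in DM against GM (adjusted p = 2.06e-05 and 2.94e-06), and Mxd4, a Max partner that represses E-box genes, rose by 1.98 and 2.42 (adjusted p = 0.000233 and 3.06e-05). Mxi1, another Max partner, and the Myc-binding factor Zbtb17 rose by 0.96 and 1.15 in DM and differed by 0.29 and 0.73 in siScramble without passing. With median scaling the calls of Mxi1 and Zbtb17 in DM and of Mxd4 in siScramble were lost, and the other 3 calls of these genes were kept. Under it 1 further gene of the network fell in DM. Of 16 further textbook Myc targets 6 fell in siScramble (median -0.91) and 5 in DM (median -0.63), where 5.95% and 8.93% of all genes fell. Among these Ppat, the first enzyme of purine synthesis, fell in both, with a difference of -1.43 in siScramble and -1.12 in DM, and Bcat1 with -1.49 in siScramble and -1.87 in DM. In siBRG1 against siScramble 15 of the 16 lay above 0 and 1 rose, Ccnd2, where 0.28% of all genes passed in either direction. Ccnd2, named after its value was seen, was 6.51 and 7.01 in siBRG1, against 4.98 and 5.44 in siScramble. It rose by 1.55 (SE 0.29, adjusted p = 0.0426 in limma), a call lost with median scaling.

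Proliferation markers were lower in both comparisons with GM. Both arrays lay below both GM arrays for 15 of 15 in siScramble (28.3% of all genes) and in DM (24.1%). In siScramble 7 fell (median -1.12) and in DM 13 (median -1.66), where 5.95% and 8.93% of all genes fell. Cdk1, the mitotic kinase, fell by 2.55 in DM and differed by -0.94 in siScramble, and it was 1.61 higher in siScramble than in DM (adjusted p = 0.0396). The Cdk1 call between siScramble and DM was lost with median scaling (difference 1.49), under which 14 of the 15 markers fell in siScramble against GM and 14 in DM against GM. The 9 measured muscle differentiation markers rose in both. The part of cell cycle exit in the differences of the ribosome biogenesis genes was not tested.

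**Figure D5:**
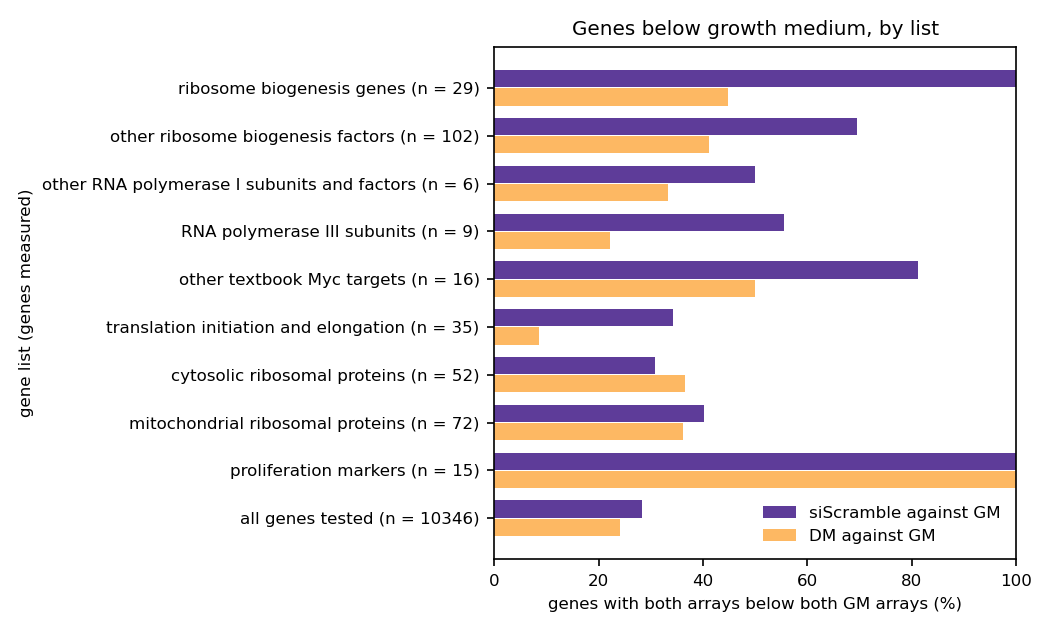
Share of the genes of each list (horizontal axis, percent) with both arrays below both GM arrays, in siScramble (purple) and DM (orange), with the number of genes measured. Ribosome biogenesis genes stand at 100% in siScramble and 44.8% in DM, cytosolic ribosomal proteins at 30.8% and 36.5%, and all genes at 28.3% and 24.1%.

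Genes with and without the E-box are given side by side as a description. In siScramble against GM the 6 measured genes whose promoter held CACGTG had a median difference of -1.10, with 3 that fell (Pes1, Nop2 and Tsr1, whose promoters are shown above), and the 17 without it a median of -0.88, with 7 that fell, Nop56 among them. In DM against GM the medians were -0.15 with the E-box, where 0 fell, and -0.61 without it, where 5 fell.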

How the data were processed

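Total RNA of 12 C2C12 samples, 6 groups of 2, was read on Illumina BeadChips. The deposited scanner table gives, per the file headers, a mean bead intensity for each of 45281 probes, not normalized, and a detection p-value of each probe against the array's negative controls. The deposited table of processed values holds linear intensities of fewer probes that share their quantiles across arrays. It was used only as an alternative, and the authors' software for it is not stated.

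The scanner intensities were background-corrected, quantile normalized and log2 transformed with the neqc function of limma 3.58.1 under R 4.3.3 (background estimated from the detection p-values, offset 16). The supplied platform table named 19589 probes by 1 gene and 8 by several, which were not used. Probes detected on fewer than 2 arrays were left out, and the brightest of the 17565 remaining probes of a gene stood for it, which left 10346 genes. One linear model of the 6 groups (lmFit, eBayes, 6 residual and 8.17 prior degrees of freedom) gave 9 comparisons, with Benjamini-Hochberg adjustment over all genes. The median standard error of a difference was 0.31, and 2 arrays per group limit the precision. The fit was tested on simulated data with known changes.

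The members and lists were chosen with earlier results of these data known. Array by array values are given for up to 8 genes with the largest changes that passed in a comparison, and for Myc, Ncl, Npm1, Nop56, Polr1a and Polr1b; where none passed, for the 3 largest differences each way. Up to 4 genes of each further list were named, by their change in DM against GM; other names are marked as chosen after their values were seen. Promoters were to be those of genes that passed in DM against GM and hold the E-box, but 0 did, so they were chosen as the text says. The alternatives were median scaling, no background correction, an offset of 50, the authors' processed values, no filter on detection, detection on all 12 arrays, the mean of all probes, the BeadChip as a fixed or random block, the replicate block, array weights, only the groups compared, and leaving out each replicate.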

Additional observations from a re-analysis of the deposited data

Results flagged for a closer look

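Rrp9 and Nop2 stood out because their change against growing cells differed between the transfected control and untransfected cells. Rrp9 differed from GM by -1.31 in siScramble and by 0.07 in DM, and Nop2 by -1.51 in siScramble and by 0.14 in DM. The difference of the changes, siScramble minus DM, was tested in limma with Benjamini-Hochberg adjustment over all genes. That is the siScramble against DM comparison given above, in which these same genes fell, and not a separate test. The difference was -1.38 for Rrp9 (adjusted p = 0.0259) and -1.65 for Nop2 (adjusted p = 0.0155). Both siScramble arrays lay below both DM arrays for either gene. Over the 16 alternatives the adjusted p lay between 0.00432 and 0.375 for Rrp9 and between 0.000837 and 0.266 for Nop2. Neither gene passed with median scaling, array weights, only the groups compared, without DM replicate 2 or without siScramble replicate 2. Rrp9 was also lost without siScramble replicate 1, and Nop2 with the mean of all probes.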

How the results depend on the processing

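No call changed direction under an alternative. Of 19 calls of a gene in a comparison, 3 held under every alternative run for them (Nop56 and Nhp2 in DM against GM, Ncl in siScramble against GM) and 16 were lost under at least 1. The number of genes called in DM against GM, 5 in the report, was 9 with median scaling, 8 without background correction, 8 with an offset of 50, 8 with the authors' values, 9 with the BeadChip as a fixed or random block, 2 with only the groups compared, and 3 to 10 when 1 replicate was left out. In siScramble against GM, 12 in the report, it was 19 with median scaling and 3 to 6 with 1 replicate left out. In siScramble against DM, 2 in the report, it was 0 with median scaling, array weights or only the groups compared, 1 with the mean of all probes, 5 without background correction or with the authors' values, 6 with an offset of 50, and 0 to 12 with 1 replicate left out. The other 6 comparisons had 0 calls whichever replicate was left out. When a replicate is left out, the lone array is assumed to vary like the other groups. Median scaling moved the median of the 29 genes to -1.03 in DM against GM (all genes -0.42) and -1.65 in siScramble against GM (all genes -0.56). It became -0.60 in siScramble against DM (all genes -0.07). Against siScramble it was 0.68 in siBRG1 (all genes 0.36) and 0.21 in siBAF60b (all genes 0.18). It was -0.10 in siBAF60c against siBAF60b (all genes -0.17). For siBRG1 it was 0.49 against siBAF60b and 0.51 against siBAF60c. With median scaling all genes stood at 0.01 in siBAF60c against siScramble, below their 0.36 in siBRG1. The 0.49 and 0.51 therefore include a shift of all genes. Without background correction the median of the 29 genes was -0.28 in DM against GM, -0.68 in siScramble against GM and 0.21 in siBRG1 against siBAF60b. With the authors' values it was -0.28, -0.67 and 0.20 in the same comparisons. It was -0.83 with an offset of 50, and -0.92 with detection on all 12 arrays or the mean of all probes, in siScramble against GM. In siScramble against DM the BeadChip as a fixed block gave -0.50 and detection on all 12 arrays -0.58. The mean of all probes gave 0.16 in siBRG1 against siScramble and 0.04 in siBRG1 against siBAF60c. Leaving out 1 replicate gave medians of -0.55 to -0.31 in DM against GM, -0.95 to -0.93 in siScramble against GM, -0.53 to -0.47 in siScramble against DM, 0.18 to 0.24 in siBRG1 against siScramble, -0.06 to 0.02 in siBAF60b against siScramble, 0.06 to 0.15 in siBAF60c against siScramble, 0.22 to 0.30 in siBRG1 against siBAF60b, 0.08 to 0.17 in siBRG1 against siBAF60c, and 0.10 to 0.17 in siBAF60c against siBAF60b. The cause of these moves was not tested. With the replicate number as a block, 6 genes passed in DM against GM, 14 in siScramble against GM, 3 in siScramble against DM and 0 in the others; the labels do not pair the numbers, and same-numbered arrays correlated in their deviations between -0.04 and 0.33 over 15 pairs of groups. Detection on all 12 arrays gives no value for Myc, Tsr1, Gnl3, Rrs1 and Polr1b, whose low signal limits what can be said of them.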
